A study of Mus musculus with 12 samples.

Results

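A set of 10 genes that restrain B cell signalling was followed in mouse splenic B cells: the inhibitory receptors Cd22, Cd72, Siglecg, Pirb, Lilrb4a and Cd5, and the inhibitory enzymes Ptpn6, Inpp5d, Ptpn22 and Csk. They were chosen by name as receptors with an inhibitory motif and inhibitory enzymes, with the Fc receptors left out, and were matched to the Ensembl rows of the count file by their mouse gene symbols. Of these 10 genes, 9 had a row among the 46078 genes of the file. Lilrb4a had none of its own.

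RNA sequencing was done on 4 groups with 3 libraries each. The MZ CKO group holds marginal zone B cells, an innate-like subset at the edge of the splenic white pulp, from mice that carried VAVcre together with the conditional Zbtb24 allele, which the labels give as Zbtb24-/-. The MZ Control group holds the same subset from mice with VAVcre alone, labelled WT. The FO CKO and FO Control groups hold follicular B cells, the recirculating B cells of the follicles, of those genotypes in the same order. All mice were C57BL/6 and 8 to 12 weeks old. As background, VAVcre is known to be active in the whole blood-forming lineage and not in B cells alone; deletion in other cell types was not measured here. The subsets were separated with a magnetic kit, and each label carries a mouse number. The same 3 numbers stand on the MZ and FO libraries of a genotype, so that the libraries of a group come from separate mice. P-values measure the spread between libraries of a group. Tests between the subsets, and of the difference of effects, did not pair the libraries of a mouse unless a block is named.

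A B cell receptor that meets antigen is phosphorylated by Src family kinases, and inhibitory receptors beside it are phosphorylated on immunoreceptor tyrosine-based inhibition motifs (ITIMs). Phosphorylated ITIMs recruit the phosphatases encoded by Ptpn6 (SHP-1, which removes phosphate from tyrosines) and Inpp5d (SHIP-1, which removes it from a membrane lipid), and these cut the signal short. Csk and the protein of Ptpn22 act earlier, on the Src family kinases themselves: Csk adds the phosphate that closes them, and the Ptpn22 phosphatase removes the activating one. Loss of Ptpn6 or Inpp5d in mice leads to autoimmune or inflammatory disease, and a coding variant of PTPN22 is a known risk factor for human autoimmunity.

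The labels held against the markers: all 10 MZ B cell markers tested were higher in MZ than in FO libraries, in either genotype, and 6 of 7 FO B cell markers were lower. The exception was Cr2, which stands on both lists. Gene counts summed to 36340116 to 44629250 per library. Zbtb24, the targeted gene, had 46.4, 41.8 and 41.9 CPM (read counts scaled to a common library total) in the MZ CKO libraries against 49.1, 52.96 and 54.4 CPM in the MZ Control libraries, and 48.4, 46.9 and 50.04 CPM in the FO CKO libraries against 62.5, 60.9 and 60.8 CPM in the FO Control libraries. The groups did not overlap in either subset. The log2 fold change of CKO over Control was -0.27 in MZ and -0.34 in FO cells and did not pass the test in either (edgeR adjusted p = 1 and 0.194). In FO cells it passed with DESeq2 (adjusted p = 0.00104) and in edgeR's test with no filter on low counts (adjusted p = 0.0102). No source used here gives the deleted part of the gene, so this level is an incomplete check of the deletion.

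A pair of promoter windows is printed here because its members belong to the gene with the largest difference between the subsets, Ptpn22, and to Cd72, whose CKO and Control libraries did not overlap in either subset. Each is the 250 bases before a RefSeq transcript start on GRCm38.p6, 5′ to 3′ on the strand of the gene. Capitals mark the match to TGGGAA, a core of sites bound by the Notch pathway factor RBPJ (here read on the opposite strand), in the Ptpn22 window and to AGGACC, a core reported for ZBTB24 binding, in the Cd72 window.
Ptpn22, chr3:103859545-103859794, + strand: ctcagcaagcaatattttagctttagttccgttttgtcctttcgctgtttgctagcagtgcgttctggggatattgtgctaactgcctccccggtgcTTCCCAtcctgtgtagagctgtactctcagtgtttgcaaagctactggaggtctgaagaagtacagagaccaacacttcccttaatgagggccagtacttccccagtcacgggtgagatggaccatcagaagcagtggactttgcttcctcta
Cd72, chr4:43454627-43454876, - strand: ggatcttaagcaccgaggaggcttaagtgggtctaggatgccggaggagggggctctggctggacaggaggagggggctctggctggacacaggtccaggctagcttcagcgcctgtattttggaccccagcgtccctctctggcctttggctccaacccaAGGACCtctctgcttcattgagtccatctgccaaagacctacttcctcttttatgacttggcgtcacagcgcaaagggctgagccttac
The match lies 153 bases before the start in Ptpn22 and 89 bases before the start in Cd72. Another Ptpn22 window, chr3:103860027-103860276, is not printed and also holds TGGGAA, 229 bases before its start. On both strands, TGGGAA is found in 21.6% and AGGACC in 14.7% of the 32851 mouse promoter windows of this length. Among the 9 genes with a promoter entry, TGGGAA was also found in windows of Inpp5d, Ptpn6, Cd22 and Cd5, and AGGACC also in 1 of the 2 Csk windows. A match is a description of the letters, and binding was not measured.

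All 9 genes with a row passed the filter on low counts in every comparison. Levels between genes were compared as CPM per kilobase of exon (RPKM). By group means Ptpn6 stood highest in each group, at 323 ± 9.79 RPKM in MZ CKO, 311 ± 15.7 in MZ Control, 348 ± 16.9 in FO CKO and 351 ± 6.46 in FO Control libraries (SD, n = 3 each). Cd22 came second, at 289 ± 37.4 RPKM in MZ CKO, 287 ± 9.95 in MZ Control, 283 ± 25.6 in FO CKO and 268 ± 14.2 in FO Control libraries, and its libraries overlapped those of Ptpn6 in both MZ groups. Csk, Siglecg, Cd72 and Inpp5d followed in that order in every group. Of the 3422 exon bases of Cd72, 1423 are shared with Tesk1 on the opposite strand. RPKM was not corrected for this, so the place of Cd72 is uncertain to that extent. Their neighbours in this order did not overlap, except Csk and Siglecg in the MZ Control libraries. Pirb, Ptpn22 and Cd5 stood well below them. In the MZ groups Ptpn22 and Pirb overlapped, with Cd5 below both. In the FO groups Pirb stood above Ptpn22 and Cd5, which overlapped.

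**Figure D1:**
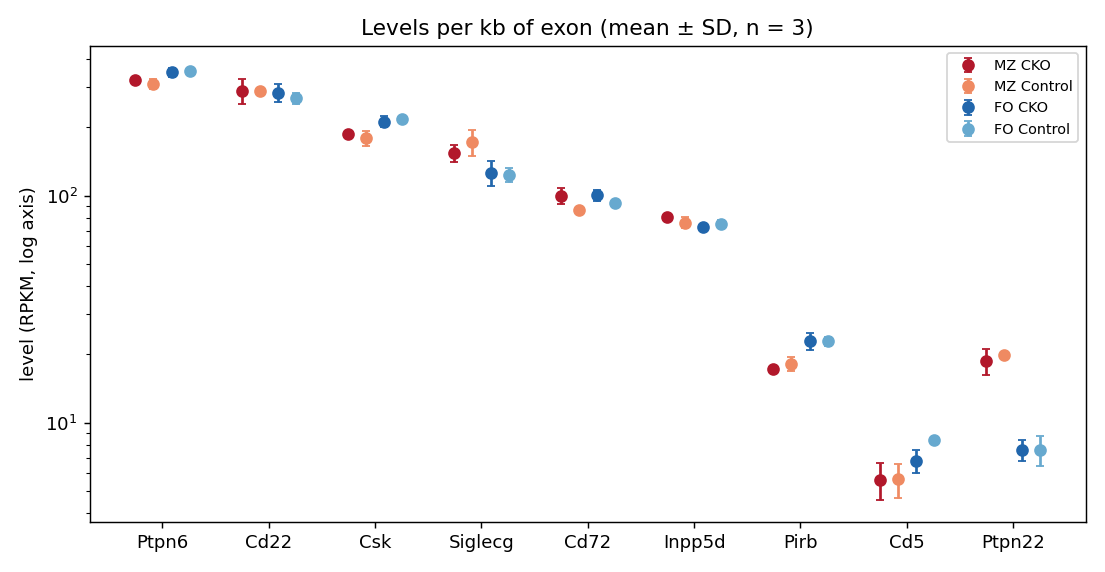
Mean level of each gene per kilobase of exon (RPKM, log axis) in the 4 groups; points are means and bars the SD of 3 libraries. Ptpn22 is the gene whose place changes most between the subsets, at 19.8 ± 0.683 RPKM in MZ Control and 7.61 ± 1.16 RPKM in FO Control libraries.

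The first comparison is between the subsets, MZ against FO, within each genotype. In CKO mice 2 of the 9 genes differed, Ptpn22 higher and Pirb lower in MZ B cells. In Control mice 5 of the 9 differed: Ptpn22 and Siglecg were higher in MZ B cells, and Cd5, Pirb and Csk were lower. The threshold was an adjusted p under 0.05 (edgeR's quasi-likelihood test, Benjamini-Hochberg over every gene tested), and the genes past it made up 18.3% in CKO mice, 10.5% higher and 7.78% lower, and 27.9% in Control mice, 14.9% higher and 13% lower. The split in CKO mice, 1865 higher and 1378 lower, depended on the scaling, since upper quartile scaling gave 1627 higher and 1713 lower. With the mouse number as a block, 4 of the 9 passed in CKO mice, Siglecg (higher) and Cd5 (lower) being added. In Control mice 6 passed, Ptpn6 (lower) being added. More of all genes passed with the block too, 6333 of 17712 in CKO mice and 7805 of 17830 in Control mice. Libraries of the subsets did not overlap for 5 of the 9 genes in CKO mice (2 with MZ higher, 3 with MZ lower), where this held for 36.4% of all genes (18.6% higher, 17.9% lower). In Control mice they did not overlap for 7 of the 9 (2 higher, 5 lower), where this held for 42.3% of all genes (22.2% higher, 20.1% lower). The median log2 fold change of the 9 genes was -0.003 in CKO mice, where that of all genes was -0.008, and -0.094 in Control mice, where that of all genes was 0.007.

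**Figure D2:**
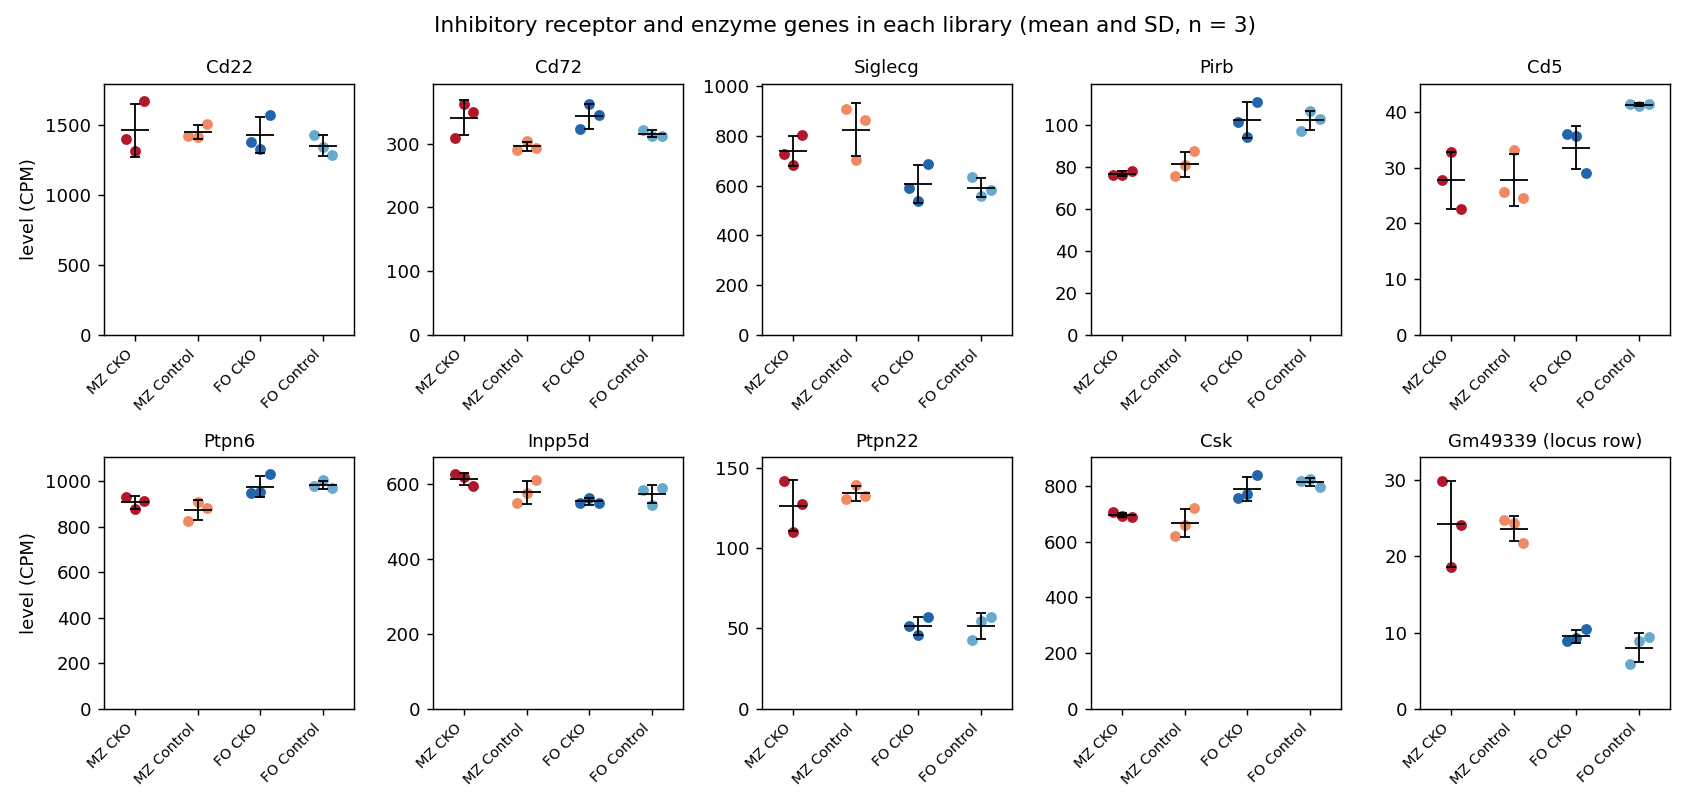
Level of each gene in every library (CPM), by group; lines are the mean and the SD of 3 libraries, and each axis starts at 0. The MZ groups stand apart from the FO groups for Ptpn22, Pirb, Ptpn6 and Csk and for the Gm49339 row that spans Lilrb4a, while CKO and Control libraries mostly mix within a subset.

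Among the receptors, Siglecg (chromosome 7, 43408204 to 43418358, + strand, on GRCm38 as are those that follow) encodes Siglec-G, an ITIM receptor for sialic acid that is best known for restraining B-1 cells. It had 727, 683 and 804 CPM in MZ CKO libraries, 907, 703 and 864 CPM in MZ Control libraries, 591, 536 and 687 CPM in FO CKO libraries and 636, 557 and 583 CPM in FO Control libraries. The subsets overlapped in CKO mice and did not overlap in Control mice. In CKO mice the log2 fold change of MZ over FO was 0.30 (SE 0.11) and did not pass (edgeR adjusted p = 0.0875); it passed with the mouse as a block (0.30, edgeR adjusted p = 0.00244), without FO CKO replicate 3 (0.39, edgeR adjusted p = 0.0424), with no filter on low counts (edgeR adjusted p = 0.0232) and with DESeq2 (adjusted p = 0.0351). In Control mice it was 0.48 (SE 0.096, edgeR adjusted p = 0.00352). Within mice, Siglecg was higher in MZ than in FO cells in 6 of 6, by 1.17 to 1.27 times in the CKO mice and 1.26 to 1.48 times in the Control mice. In the Control mice whose numbers begin with 15 alone, the adjusted p was 0.0701 in edgeR's test. Summed over 9 B-1 cell markers, of which Cd9 is also an MZ marker and Ctla4 is also among the other inhibitory receptors, the level was 262 to 338 CPM in MZ CKO, 268 to 315 CPM in MZ Control, 236 to 317 CPM in FO CKO and 238 to 288 CPM in FO Control libraries; none was at 0 in any library, and their part in the Siglecg difference was not tested.

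Pirb (chromosome 7, 3711409 to 3720391, - strand) encodes paired immunoglobulin-like receptor B, an ITIM receptor for MHC class I that is found on B cells and myeloid cells. It had 76.4, 76.2 and 78.2 CPM in MZ CKO libraries, 75.7, 80.8 and 87.4 CPM in MZ Control libraries, 102, 94.1 and 111 CPM in FO CKO libraries and 97.4, 107 and 103 CPM in FO Control libraries. Every MZ library lay below every FO library. MZ over FO was -0.40 (SE 0.073) on the log2 scale in CKO mice and -0.33 (SE 0.072) in Control mice, with edgeR adjusted p = 0.00472 and 0.00512. Pirb was lower in MZ than in FO cells in 6 of 6 mice. Of 10 near copies of Pirb and Lilrb4a looked for by symbol, only Pira2 led to a row. Lilr4b had an Ensembl entry without a row. The other Pira symbols had no match in the annotation used here, so rows of those genes under other names may have been missed. Pira2 was lower in MZ cells as well, with a log2 fold change of -0.66 in CKO and -0.82 in Control mice (edgeR adjusted p = 0.0355 and 0.00012). The Pira2 call in CKO mice was lost without FO CKO replicate 1, FO CKO replicate 3, MZ CKO replicate 2 or MZ CKO replicate 3 (edgeR adjusted p = 0.092 to 0.114). Reads of Pirb and of its near copies may have been split in counting, so the value of Pirb is uncertain to that extent. Summed over 12 markers, macrophage and monocyte RNA had 243 to 388 CPM in MZ CKO, 202 to 391 CPM in MZ Control, 324 to 591 CPM in FO CKO and 253 to 505 CPM in FO Control libraries. Over 11 neutrophil markers the sum was 92.7 to 290 CPM in MZ CKO and 85.2 to 187 CPM in MZ Control libraries. It was 162 to 474 CPM in FO CKO and 125 to 259 CPM in FO Control libraries. For 0 of these 11 was the fold change of MZ over FO positive, in either genotype. No marker of the 2 lists was at 0 in any library, and the part of myeloid cells in the Pirb difference was not tested.

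Cd5 (chromosome 19, 10717116 to 10739002, - strand) is a scavenger receptor family protein of T cells and B-1a cells that dampens antigen receptor signals. It had 27.9, 32.8 and 22.5 CPM in MZ CKO libraries, 25.7, 33.2 and 24.6 CPM in MZ Control libraries, 36.04, 35.6 and 29.1 CPM in FO CKO libraries and 41.4, 41.02 and 41.5 CPM in FO Control libraries. The FO Control libraries were the highest of all and lay close together, and the other groups overlapped with one another. In CKO mice the log2 fold change of MZ over FO was -0.27 (SE 0.15) and did not pass (edgeR adjusted p = 0.256), while with the mouse as a block it was -0.28 and passed (edgeR adjusted p = 0.00716). In Control mice it was -0.57 (SE 0.11, edgeR adjusted p = 0.0021). The fold change was negative in 6 of 6 mice.

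T cell RNA moved with Cd5. Summed over 16 T cell markers, which do not include Cd5, the level was 424 to 593 CPM in MZ CKO, 486 to 701 CPM in MZ Control, 605 to 806 CPM in FO CKO and 827 to 951 CPM in FO Control libraries, and none of the 16 markers was at 0 in any library. In MZ against FO, 4 of the 16 were lower in CKO mice and 11 of the 16 in Control mice, where 7.78% and 13% of all genes were lower. With the mouse as a block it was 15 of the 16 in CKO mice, where 2937 of all 17712 genes were lower. With DESeq2 it was 12 of the 16 in CKO mice, where 1620 of 17712 genes were lower. With the CKO mice whose numbers begin with 15 alone it was also 12, where 692 of 18014 genes were lower. In CKO mice the 4 became 2 without FO CKO replicate 1, FO CKO replicate 2 or MZ CKO replicate 3. In Control mice the 11 became 7 without FO Control replicate 1 or FO Control replicate 2, and 6 without MZ Control replicate 1. They became 5 with the Control mice whose numbers begin with 15 alone, where 1292 of 18033 genes were lower. Per 1000 CPM of these summed markers, Cd5 had 49.3, 55.3 and 53.1 CPM in MZ CKO, 50.7, 47.3 and 50.6 CPM in MZ Control, 45.5, 44.2 and 48.1 CPM in FO CKO and 50.1, 43.1 and 45.8 CPM in FO Control libraries. On this scale the MZ CKO libraries lay above the FO CKO libraries without overlap, and the MZ Control and FO Control libraries overlapped. Among 18545 genes, the levels most like that of Cd5 over the 12 libraries, by Pearson's r of log2 CPM, were those of Cd247 (0.985), Thy1 (0.984) and Tcf7 (0.984), all genes of T cells; the libraries share their depth and, in pairs, their mouse. The part of T cells in the Cd5 difference was not tested, and in these bulk samples fewer cells of a type and less RNA per cell cannot be told apart.

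**Figure D3:**
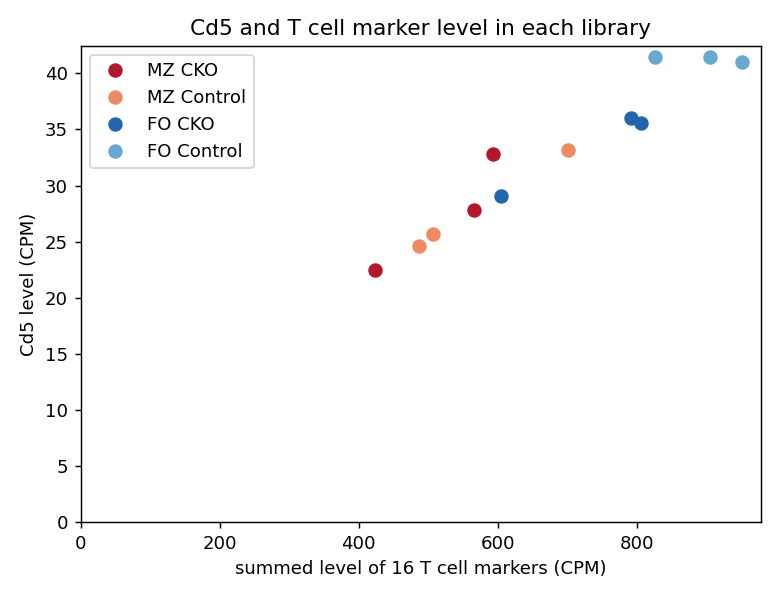
Cd5 level against the summed level of 16 T cell markers in each library (both in CPM); each point is 1 library. The FO Control libraries lie highest on both axes and the MZ CKO library with 22.5 CPM of Cd5 lowest on both.

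Cd22 (chromosome 7, 30865402 to 30880342, - strand) encodes a receptor for sialic acid that is a main ITIM carrier of mature B cells. Cd22 had 1396, 1310 and 1671 CPM in MZ CKO libraries, 1421, 1415 and 1505 CPM in MZ Control libraries, 1379, 1326 and 1571 CPM in FO CKO libraries and 1426, 1343 and 1283 CPM in FO Control libraries, and the subsets overlapped in both genotypes. On the log2 scale MZ over FO was 0.041 (SE 0.11) in CKO mice and 0.099 (SE 0.069) in Control mice, with edgeR adjusted p = 0.852 and 0.335. Cd72 (chromosome 4, 43446462 to 43454628, - strand) encodes an ITIM receptor that binds CD100, the product of Sema4d. It had 309.6, 362 and 350.1 CPM in MZ CKO libraries, 291, 304 and 293 CPM in MZ Control libraries, 323, 362 and 345 CPM in FO CKO libraries and 322, 312 and 313 CPM in FO Control libraries. The subsets overlapped in CKO mice and did not overlap in Control mice, where MZ lay lower. The fold change was small beside its error in CKO mice, at -0.0032 (SE 0.082) on the log2 scale, and -0.094 (SE 0.060) in Control mice (edgeR adjusted p = 0.986 and 0.289). Exons of Cd72 share 1423 bases with Tesk1 on the opposite strand, and those of Cd22 share 479 bases with the antisense gene Gm29439. No source used here says whether counting used strand. It is therefore not known whether reads on the shared bases were counted, or for which gene of a pair.

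Lilrb4a encodes an ITIM receptor of the leukocyte immunoglobulin-like family and lies on chromosome 10 at 51490956 to 51496611 (GRCm38). All 5656 bases of the gene are spanned by Gm49339, a row that also covers its neighbour Lilr4b and that shares 1846 exonic bases with Lilrb4a. That row is given here in its place, chosen after its values were seen. Its CPM and RPKM (23.65 and 11.89 in MZ Control libraries) give an exon length of which the bases shared with Lilrb4a are the larger part. Reads of the near copy Lilr4b were not told apart, so the row cannot be assigned to Lilrb4a alone. Gm49339 had 29.9, 18.6 and 24.2 CPM in MZ CKO libraries, 24.8, 24.4 and 21.8 CPM in MZ Control libraries, 8.82, 9.29 and 10.5 CPM in FO CKO libraries and 5.82, 8.85 and 9.37 CPM in FO Control libraries. Every MZ library lay above every FO library. The row was higher in MZ cells, with a log2 fold change of 1.35 (SE 0.17) in CKO mice and 1.56 (SE 0.17) in Control mice (edgeR adjusted p = 0.000839 and 8.67e-05). Marker sums of other cell types moved between the subsets too. Over 10 dendritic cell markers the sum was 823 to 991 CPM in MZ CKO, 878 to 961 CPM in MZ Control, 577 to 659 CPM in FO CKO and 637 to 665 CPM in FO Control libraries. Over 8 plasma cell markers it was 865 to 917 CPM in MZ CKO, 858 to 908 CPM in MZ Control, 565 to 653 CPM in FO CKO and 588 to 656 CPM in FO Control libraries. Both sums were thus higher in MZ cells, like Gm49339, but most of the single dendritic cell markers were not. MZ over FO was positive for 1 of the 10 in CKO and 2 of the 10 in Control mice (median log2 fold change -0.459 and -0.313). Among the 8 plasma cell markers it was positive for 4 in either genotype (medians -0.252 in CKO and -0.071 in Control mice). The macrophage and monocyte sums given above had lower means in MZ than in FO cells. The part of these cell types in the Gm49339 difference was not tested.

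Among the enzymes, Ptpn22 (chromosome 3, 103859795 to 103912247, + strand) showed the largest difference of the 9 genes. It had 142, 109.8 and 128 CPM in MZ CKO libraries, 130.5, 139 and 133 CPM in MZ Control libraries, 51.2, 46.1 and 57.1 CPM in FO CKO libraries and 42.5, 54.9 and 57.2 CPM in FO Control libraries. Every MZ library lay well above every FO library. The log2 fold change of MZ over FO was 1.31 (SE 0.11) in CKO mice and 1.38 (SE 0.10) in Control mice, with edgeR adjusted p = 0.000109 and 4.94e-06. Within mice, MZ over FO was 2.77, 2.38 and 2.24 times in the CKO mice and 3.07, 2.54 and 2.32 times in the Control mice. Ptpn22 is also a gene of T cells, and the T cell marker sums given above were lower in MZ than in FO cells; the part of T cells in the Ptpn22 difference was not tested. The genes whose log2 CPM was most like that of Ptpn22 over the 12 libraries were Ly96 (Pearson's r = 0.993), which encodes the Toll-like receptor partner MD-2, Borcs7 (0.992), a subunit of the lysosome positioning complex BORC, and Gml (0.990). These r values include the difference between the subsets, in which 27.9% of all genes passed in Control mice, and shared regulation was not tested. The promoter window printed above belongs to Ptpn22.

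Csk (chromosome 9, 57626646 to 57653631, - strand), the kinase that closes Src family kinases, was lower in MZ cells of Control mice. It had 706, 694 and 691 CPM in MZ CKO libraries, 621, 662 and 720.4 CPM in MZ Control libraries, 759, 770.4 and 841 CPM in FO CKO libraries and 819.6, 826 and 797 CPM in FO Control libraries. The subsets did not overlap in either genotype. In CKO mice the log2 fold change was -0.17 (SE 0.076) and did not pass (edgeR adjusted p = 0.154). In Control mice it was -0.29 (SE 0.071, edgeR adjusted p = 0.0108). Csk was lower in MZ than in FO cells in 6 of 6 mice.

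Both phosphatases that ITIMs recruit differed little between the subsets. Ptpn6 (chromosome 6, 124720707 to 124738714, - strand) had 928, 875 and 914 CPM in MZ CKO libraries, 822, 908 and 881 CPM in MZ Control libraries, 947, 950 and 1031 CPM in FO CKO libraries and 979.7, 1004 and 969 CPM in FO Control libraries. No MZ library reached an FO library of its genotype. Within every mouse Ptpn6 was lower in MZ than in FO cells, at 0.887 to 0.98 times in CKO and 0.839 to 0.91 times in Control mice. The log2 fold change of MZ over FO was -0.100 (SE 0.078) in CKO mice and -0.18 (SE 0.067) in Control mice, and neither passed (edgeR adjusted p = 0.438 and 0.0695). The Control value passed with the mouse as a block (-0.18, edgeR adjusted p = 0.0264), with upper quartile scaling (-0.19, edgeR adjusted p = 0.0424) and with DESeq2 (-0.19, adjusted p = 0.0276). Inpp5d (chromosome 1, 87620312 to 87720507, + strand) had 626, 617 and 595 CPM in MZ CKO libraries, 548, 575 and 610.2 CPM in MZ Control libraries, 548, 562 and 549 CPM in FO CKO libraries and 583, 544 and 588 CPM in FO Control libraries. Inpp5d was the steadiest of the 9, its highest library standing 1.15 times above its lowest, against 3.34 times for Ptpn22. The MZ CKO libraries lay above the FO CKO libraries without overlap, but the log2 fold change of 0.16 (SE 0.069) did not pass (edgeR adjusted p = 0.162). In Control mice it was 0.015 (SE 0.069, edgeR adjusted p = 0.905). Ptpn6 shares 195 exonic bases with the antisense gene Gm20531.

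**Figure D4:**
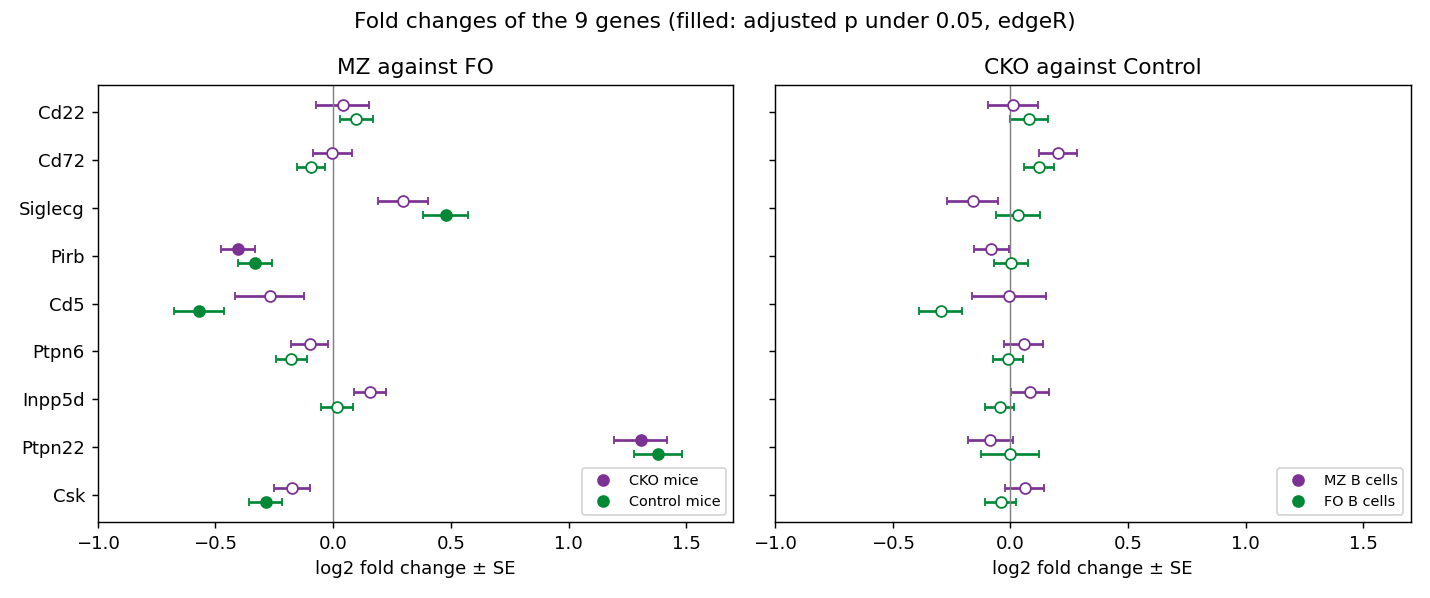
Log2 fold changes of the 9 genes with their SE: MZ over FO within CKO and Control mice (left) and CKO over Control within MZ and FO B cells (right); filled points passed at an adjusted p under 0.05 in edgeR's test. Points are filled only on the left, for Ptpn22 and Pirb in both genotypes and for Siglecg, Cd5 and Csk in Control mice.

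Further genes of the pathway were read from lists. Of all genes, 18.3% passed between the subsets in CKO mice and 27.9% in Control mice. With the mouse as a block, 6333 of 17712 genes passed in CKO mice and 7805 of 17830 in Control mice. Of the 15 other inhibitory receptors on the list, 14 were tested in CKO mice, where 1 was higher and 3 were lower in MZ than in FO cells, with a median log2 fold change of -0.389 against -0.008 for all genes. In Control mice 1 of 15 was higher and 6 were lower, with a median of -0.302 against 0.007. With the mouse as a block, these counts were 1 higher and 8 lower in CKO mice and 1 higher and 10 lower in Control mice. Lair1, an ITIM receptor for collagen, was the one that was higher: it had 21.6, 14.2 and 21.6 CPM in MZ CKO, 19.97, 18.2 and 24.9 CPM in MZ Control, 5.56, 8.03 and 6.16 CPM in FO CKO and 3.88, 7.77 and 7.54 CPM in FO Control libraries. Its log2 fold change was 1.54 (SE 0.21) in CKO and 1.72 (SE 0.29) in Control mice (edgeR adjusted p = 0.00117 and 0.00665). Btla, a receptor for the TNF receptor family member HVEM, was lower, at 353, 269 and 304 CPM in MZ CKO, 310.1, 269.5 and 309 CPM in MZ Control, 744, 556 and 770 CPM in FO CKO and 673, 621 and 662 CPM in FO Control libraries. Its log2 fold change was -1.15 in CKO and -1.14 in Control mice (edgeR adjusted p = 0.00137 and 1.01e-06). Ceacam1, a homophilic adhesion receptor with ITIMs, was lower in CKO mice at a log2 fold change of -0.31 (edgeR adjusted p = 0.0302). At most 4 genes of a list are named per comparison, so a gene given for 1 genotype may differ in the other too. For the difference between genotypes, 0 of the 15 receptors passed. Pdcd1 and Ctla4, receptors best known from T cells, stood at no more than 3.85 CPM in any library. Ctla4 was lower in CKO (-0.85, edgeR adjusted p = 0.0286) and Control mice (-0.64, edgeR adjusted p = 0.0438), and Pdcd1 was lower in Control mice (-0.75, edgeR adjusted p = 0.0369). The T cell marker sums given above were lower in MZ than in FO cells too, and the part of T cells in the Ctla4 and Pdcd1 differences was not tested. Without FO CKO replicate 3 or MZ CKO replicate 1, the 4 receptors past the test in CKO mice became 2, and without FO Control replicate 3 or MZ Control replicate 1 the 7 in Control mice became 4.

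Of 22 other inhibitory enzymes and adaptors, 4 were higher and 4 lower in MZ cells of CKO mice, where 18.3% of all genes passed. In Control mice 2 were higher and 4 lower, where 27.9% of all genes passed. With the mouse as a block 5 were higher and 5 lower in Control mice. The 8 in CKO mice became 4 without FO CKO replicate 1 and 5 without FO CKO replicate 3, MZ CKO replicate 1 or MZ CKO replicate 2. Their median log2 fold change was 0.01 in CKO and -0.037 in Control mice. Lax1, a membrane adaptor that restrains antigen receptor signals, was higher, at 367, 347 and 428 CPM in MZ CKO, 426, 404 and 379 CPM in MZ Control, 205, 207 and 224 CPM in FO CKO and 211, 219 and 199.5 CPM in FO Control libraries. Its log2 fold change was 0.85 in CKO and 0.94 in Control mice (edgeR adjusted p = 0.000253 and 2.1e-06). Dgka, the diacylglycerol kinase alpha gene, was lower, at 176, 183 and 186 CPM in MZ CKO, 180.4, 194 and 166 CPM in MZ Control, 344, 311 and 329 CPM in FO CKO and 354, 348 and 322 CPM in FO Control libraries. Its log2 fold change was -0.85 in CKO and -0.92 in Control mice (edgeR adjusted p = 5.87e-05 and 4.25e-06). Pag1, the membrane anchor that brings Csk to Src family kinases, was lower in both genotypes, with a log2 fold change of -0.48 in CKO and -0.60 in Control mice (edgeR adjusted p = 0.0016 and 7.14e-05). Ptpn18, a phosphatase of the same subfamily as Ptpn22, was higher in Control mice at 0.59 (edgeR adjusted p = 0.000217). Sla2, an adaptor that lowers antigen receptor levels, was higher in CKO mice at 0.58 (edgeR adjusted p = 0.0259). Ptpn18 and Sla2 are given only for the genotype in which they were among the genes named. For the difference between genotypes, 0 of the 22 passed.

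Genes for ligands of these receptors and for the enzymes that make them numbered 7. Shares of all genes past the test were 18.3% in CKO and 27.9% in Control mice. In CKO mice 2 of the 7 were lower in MZ cells (2 higher and 2 lower with the mouse as a block). In Control mice 1 was higher and 2 were lower. The lower ones were both enzymes of sialic acid, the sugar that CD22 and Siglec-G bind. St6gal1, which attaches sialic acid in the linkage that CD22 prefers, had 212, 178 and 187 CPM in MZ CKO, 185, 193 and 190.5 CPM in MZ Control, 379.8, 319 and 384 CPM in FO CKO and 437, 351 and 395 CPM in FO Control libraries. Its log2 fold change was -0.90 (SE 0.098) in CKO and -1.06 (SE 0.081) in Control mice (edgeR adjusted p = 0.0003 and 2.78e-06). Cmah, which converts sialic acid to its glycolyl form, had 151, 146 and 167 CPM in MZ CKO, 150.2, 138 and 136 CPM in MZ Control, 335, 329.6 and 341 CPM in FO CKO and 335, 301 and 373 CPM in FO Control libraries. Its log2 fold change was -1.11 (SE 0.072) in CKO and -1.25 (SE 0.085) in Control mice (edgeR adjusted p = 2.06e-05 and 1.16e-06). Neither gene overlapped between the subsets in either genotype. H2-K1, a class I heavy chain of the kind PIR-B binds, was higher in Control mice at 0.27 (edgeR adjusted p = 0.0181).

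Of 20 genes of activating B cell receptor signalling, 7 were higher and 4 lower in MZ cells of CKO mice. In Control mice 9 were higher and 7 lower. Thus 11 of the 20 passed in CKO and 16 of the 20 in Control mice, where 18.3% and 27.9% of all genes passed. Cr2, a complement receptor gene and itself an MZ marker, had a log2 fold change of 1.62 in CKO and 1.97 in Control mice (edgeR adjusted p = 0.000315 and 2.63e-06). Cd81, a tetraspanin gene, was higher at 1.02 in CKO and 0.99 in Control mice (edgeR adjusted p = 0.000102 and 5.79e-07). Blk, a Src family kinase of B cells, was higher at 0.95 in CKO and 0.92 in Control mice (edgeR adjusted p = 5.76e-05 and 1.09e-06). Rasgrp3, an activator of Ras, was lower at -1.10 in CKO and -1.34 in Control mice (edgeR adjusted p = 0.00388 and 1.72e-07). Both the inhibitory and the activating genes held members that moved in each direction, while the share past the test differed between the lists.

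**Figure D5:**
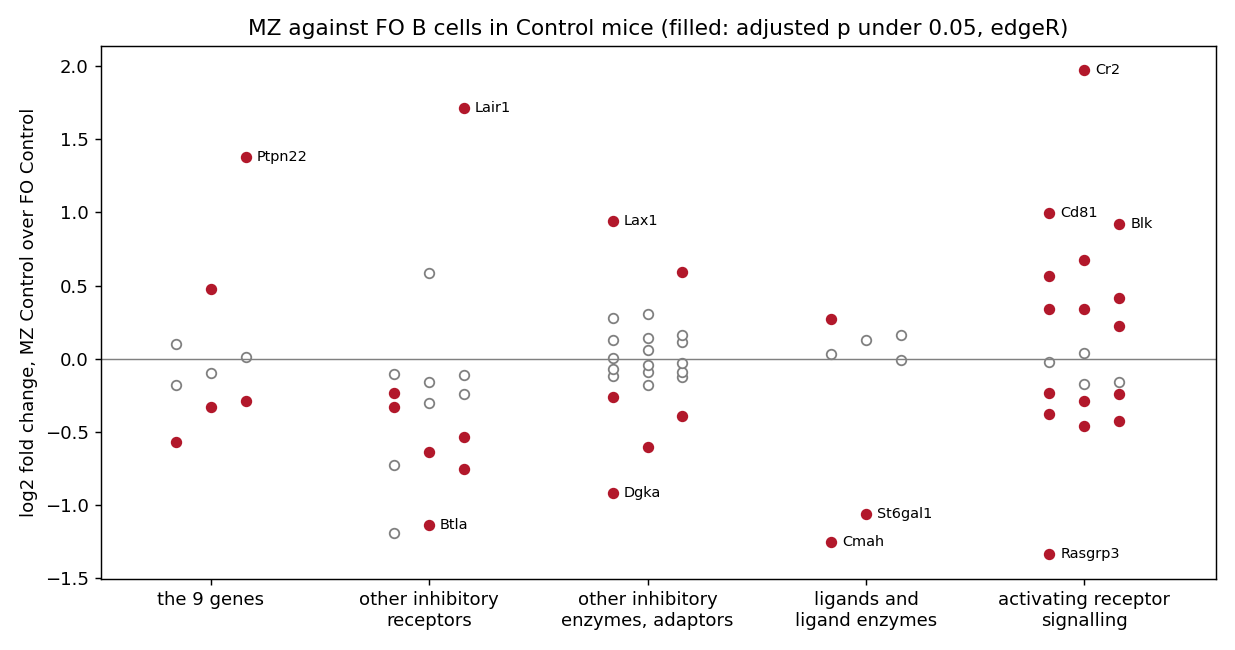
Log2 fold change of MZ over FO B cells in Control mice for the 9 genes and 4 further lists of the pathway; each point is 1 gene, spread sideways for legibility, and filled points passed at an adjusted p under 0.05 in edgeR's test. Ptpn22 lies highest among the 9 genes, Lair1 among the other receptors and Cr2 among the activating genes.

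The second comparison, CKO against Control within a subset, asks whether loss of Zbtb24 changed these genes. None of the 9 passed in edgeR's quasi-likelihood test in MZ B cells, where 0.0793% of all genes passed, or in FO B cells, where 0.09% passed. DESeq2 called 0 of the 9 in either subset as well. At an unadjusted p under 0.05 there was 1 of the 9 in MZ cells, Cd72, where 2.9% of all genes reached it, and 1 in FO cells, Cd5, where 4.03% did. The median log2 fold change of the 9 genes was 0.012 in MZ and 0 in FO cells, beside 0 and 0.006 for all genes. A p that misses the threshold does not show that the levels were the same.

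Cd72 was the gene whose CKO and Control libraries did not overlap in either subset, with CKO higher. It averaged 340.5 ± 27.4 CPM in MZ CKO and 296 ± 6.89 CPM in MZ Control libraries, and 343 ± 19.5 CPM in FO CKO and 316 ± 5.56 CPM in FO Control libraries (SD, n = 3 each). The log2 fold change of CKO over Control was 0.20 (SE 0.081) in MZ and 0.12 (SE 0.064) in FO cells, with edgeR adjusted p = 1 and 0.9995. Groups without overlap were found for 7.63% of all genes in MZ cells, 3.65% with CKO higher and 3.98% with CKO lower, and for 9.32% in FO cells, 4.44% with CKO higher. The CKO libraries of both subsets come from the same mice, so the subsets do not repeat each other.

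Cd5 in FO cells averaged 33.6 ± 3.89 CPM in CKO and 41.3 ± 0.251 CPM in Control libraries (SD, n = 3 each), without overlap. CKO over Control was -0.29 on the log2 scale (SE 0.091, edgeR adjusted p = 0.9995). Groups without overlap and with CKO lower made up 4.88% of all genes. All 16 T cell markers had a negative fold change in that comparison, with a median of -0.276 on the log2 scale, and 0 of the 16 passed (5 with no filter on low counts and 1 with DESeq2, all lower). Their part in the Cd5 value was not tested. In MZ cells Cd5 averaged 27.7 ± 5.14 CPM in CKO and 27.8 ± 4.68 CPM in Control libraries, the log2 fold change was -0.0065 (SE 0.16), and the median of the T cell markers was -0.071. Siglecg in MZ cells had a log2 fold change of -0.16 (SE 0.11, edgeR adjusted p = 1), with overlap, and one of 0.033 (SE 0.092) in FO cells.

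The other 6 genes had small fold changes between genotypes. In MZ cells they lay between -0.085 for Ptpn22 and 0.084 for Inpp5d on the log2 scale, and in FO cells between -0.045 for Inpp5d and 0.080 for Cd22. Their CKO and Control libraries overlapped in both subsets. Ptpn22, which differed most between the subsets, averaged 127 ± 16.2 CPM in MZ CKO and 134 ± 4.63 CPM in MZ Control libraries, and 51.5 ± 5.54 CPM in FO CKO and 51.5 ± 7.87 CPM in FO Control libraries. The Gm49339 row over Lilrb4a had log2 fold changes of 0.036 (SE 0.16) in MZ and 0.25 (SE 0.18) in FO cells, and neither passed (edgeR adjusted p = 1 and 0.9995). CKO over Control was positive for 10 of the 11 neutrophil markers in MZ cells and for 11 in FO cells. Their median log2 fold changes were 0.466 and 0.786, and 0 passed. The part of neutrophils in the genotype values was not tested.

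In the 4 further lists, 0 genes passed between genotypes in either subset with edgeR, or with DESeq2. With no filter on low counts Cr2 passed in FO cells (log2 0.30, edgeR adjusted p = 0.0457). The smallest p-values in MZ cells among the receptors were those of Tigit, at no more than 0.63 CPM in any library and with a log2 fold change of -0.95 (edgeR adjusted p = 1), and of Ctla4 (-0.46). Among the enzymes and adaptors of MZ cells they were those of Inpp4b, a lipid phosphatase, at 0.21, and of Ubash3b, a tyrosine phosphatase of antigen receptor pathways, at -0.17. In FO cells Sla2 stood at -0.44 and Ubash3b at -0.28 (edgeR adjusted p = 0.9995 for each), both without overlap and with CKO lower. Of the 22 enzymes and adaptors, 4 had no overlap with CKO lower and 1 with CKO higher, where all genes gave 4.88% and 4.44%. Ctla4 (-0.24) and Sit1 (-0.24) had the smallest p-values among the receptors of FO cells. Among the ligand genes these were Cmah (0.13) and Sema4d (0.14) in MZ cells and H2-K1 (0.17) and H2-D1 (0.15) in FO cells. Among the activating genes they were Rasgrp3 (0.28) and the Src family kinase Fyn (-0.17) in MZ cells and Fyn (-0.22) and Cr2 (0.31) in FO cells.

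The third comparison tested whether the genotype effect differed between the subsets, which is also the test of whether the difference between MZ and FO cells depends on genotype. None of the 9 genes passed in edgeR's test, where 0% of the 18546 genes tested passed and 1.28% had an unadjusted p under 0.05, and none of the 9 was among those. The largest values were those of Cd5, at 0.29 (SE 0.20), and of Siglecg, at -0.19 (SE 0.15), for MZ minus FO on the log2 scale (edgeR adjusted p = 1 for each). Siglecg, Cd5 and Csk did not pass between the subsets in CKO mice and did in Control mice, and this test does not show that the genotypes differ there.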

How the data were processed

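The deposited values are raw counts of reads for each Ensembl gene, not normalized, made with TopHat and HTSeq on GRCm38 per the submitters' processing notes (which also name DESeq2, all without versions). The annotation release and strand setting are not given in the sources used here. Entries naming no gene (5, holding 43.2 to 50.4% of each library's reads) were left out. Symbols, exon lengths and coordinates are from GENCODE M21. Tests used edgeR 4.0.16 in R 4.3.3: filterByExpr, TMM, robust quasi-likelihood F test, two-sided, Benjamini-Hochberg over all genes. SE is the absolute log2 fold change over the square root of F. CPM uses TMM-adjusted totals of all 12 libraries. DESeq2 1.42.0 was an alternative, and recovery was tested on simulated data.

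Members, lists and tests were chosen with earlier results of these data known. Beside all members, the text names from each further list up to 4 genes that passed with the largest fold change or, where none passed, up to 2 with the smallest p, and from all genes 3 most like Ptpn22 and 3 most like Cd5. That the MZ and FO libraries of a number share a mouse is inferred from the labels; their deviations from the group means correlated at 0.464, 0.651 and 0.604 in CKO and 0.426, 0.612 and 0.516 in Control mice. Between genotypes, same-numbered replicates correlated at -0.065, 0.362 and 0.365 in MZ and at 0.104, 0.323 and 0.361 in FO cells.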

Additional observations from a re-analysis of the deposited data

How the results depend on the processing

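The counts of called genes and the fold changes of the 9 genes, the Gm49339 row, Zbtb24, Pira2 and the named genes of the further lists were refitted with DESeq2, upper quartile scaling, no filter, no robust dispersion, a replicate block (replicate or mouse number), mice numbered 15xx alone, all 12 libraries in one fit (the difference of effects already uses all 12), and without each library in turn. No fold change that passed changed its sign. Of the fold changes of the 9 genes that did not pass, some near 0 changed sign in at least 1 alternative: 3 of 9 for CKO against Control in MZ, 5 of 9 in FO, 2 of 7 for MZ against FO in CKO, 1 of 4 in Control and 3 of 9 for the difference of effects. With upper quartile scaling the larger share of genes passing in MZ against FO in CKO mice turned from higher to lower, as given in the report. Ptpn22 and Pirb in both genotypes, and Cd5 and Csk in Control mice, passed between the subsets in all 13 alternatives; Siglecg passed in 4 of 13 in CKO and 12 of 13 in Control mice. In the replicate block, 4 of the 9 genes passed in CKO mice against 2 without it; the other calls it changed stand in the report. No alternative called any of the 9 between genotypes.

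Counts over all genes moved more. CKO against Control in FO gave 16 genes, and 40 with DESeq2, 140 with no filter, 25 with the replicate block, 26 with mice 15xx and 11 to 31 without single libraries (31 without FO CKO replicate 3). In MZ it gave 14, and 38 with DESeq2, 95 with no filter, 7 without robust dispersion, 57 with the replicate block, 34 with mice 15xx and 5 to 34 without single libraries (7, 5 and 9 without MZ Control replicates 1, 2 and 3, and 34 without MZ CKO replicate 3). MZ against FO gave 3243 in CKO, 6333 with the replicate block, 1770 with mice 15xx and 1898 to 2884 without single libraries (1898 without FO CKO replicate 1); in Control it gave 4977, 7805, 2888 and 3585 to 5012. The difference of effects gave 0 and, with the block, 4. The cause was not tested.

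Of the further genes named, with mice 15xx alone Btla, Rasgrp3, Ctla4, Ceacam1, Sla2 and Pira2 lost their call in CKO mice, and Pdcd1, Ctla4 and H2-K1 in Control mice. Leaving out 1 library ended the call in CKO mice of Ctla4 (each library but MZ CKO replicate 3; edgeR adjusted p at most 0.0981), Ceacam1 (each but FO CKO replicate 2 and MZ CKO replicate 2; at most 0.113) and Sla2 (each but FO CKO replicate 2 and MZ CKO replicate 3; at most 0.106). In Control mice it did so for Ctla4 (each library but FO Control replicate 2; at most 0.177), Pdcd1 (FO Control replicate 1 or 3, MZ Control replicate 1 or 3; at most 0.148) and H2-K1 (FO Control replicate 3, MZ Control replicate 1 or 3; at most 0.0687). Ctla4 and Pdcd1 rest on few reads.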
